A study of Mus musculus with 6 samples.

Results

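Trefoil-expressing tumor cells were a rare set of keratin-positive cells in subcutaneous pancreatic tumors. They carried the trefoil peptide gene Tff1 and the galectin gene Lgals4, and no unique molecular identifier (UMI, the tag that marks 1 captured RNA molecule) of the chromatin gene Hmga2. A barcode was counted when it had at least 1000 genes, at most 10% mitochondrial UMIs and 1 hashtag with at least 2/3 of its antibody UMIs. It also needed at least 5 UMIs of Krt8 and Krt18 together, at least 2 UMIs each of Tff1 and Lgals4, none of Hmga2 or of the leukocyte gene Ptprc, and at most 2 of the macrophage genes C1qa, C1qb and C1qc together. These limits left 112 cells of 104682 barcodes that passed the gene and mitochondrial limits. They were 112 of 13102 tumor epithelial cells, a name used here for barcodes that met the hashtag, keratin, Ptprc and C1q limits. The cells were thus selected on their own UMI counts of Tff1, Lgals4, Hmga2, Krt8, Krt18, Ptprc and the C1q genes, so the levels of these genes are descriptions with no test.

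The tumors had grown from 6694c2vTRP1 cells, a mouse pancreatic ductal adenocarcinoma line, injected under the skin of C57BL/6 mice. The study used both male and female mice with this tumor line and gave an age of 6 to 8 weeks for its treatment experiment with the parent line 6694C2. The age and sex of the sequenced mice in particular were not given in the sources used here. Mice had received PBS as the control, mono-IL10 (a monomeric IL-10) at 26 µg per mouse, or IL10/2-Trikine (the same cytokine fused to a binder of the IL-2 receptor) at 30.6 µg per mouse. Each group had 2 doses from day 8 by intraperitoneal injection, and tumors were taken on day 14. Digested tumors had gone through bead isolation of CD45+ cells, so every tumor cell here had passed through an isolation meant for leukocytes. The 5 mice of each group bore hashtags 1 to 5 and were pooled into 1 droplet library per treatment, so treatment and library cannot be told apart. The labels state 5 mice for the treated groups only, and the 5 hashtags of the PBS library were taken as 5 mice. The PBS mice served as controls for both cytokines. The libraries held 30528 to 55504 barcodes and 364814102 to 515236552 UMIs. Tumor epithelial cells had a median of 27550 UMIs in the PBS library, 35530 in the mono-IL10 library and 10500 in the IL10/2-Trikine library.

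Trefoil factors are small secreted peptides held in a compact fold by disulfide bonds, and mucus-producing cells of the gut release them together with mucins. Tff1 is known from surface cells of the stomach, and Tff2 from its neck cells and deep glands. In pancreatic cancer, Tff1, Tff2 and Lgals4 belong to the genes that mark the more differentiated, classical tumors. Hmga2 is known from embryonic tissue and from poorly differentiated tumors. Lgals4, a galectin of the gut epithelium, and Dmbt1, a secreted mucosal scavenger receptor, complete the genes by which these cells were marked.

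Promoter sequence is shown for the rule gene Lgals4 and for Prap1 and Fabp1, genes of gut epithelium that stood higher in these cells. The 250 bases before each gene's start were taken from RefSeq on build GRCm38.p6 and are printed 5′ to 3′ on the strand of the gene, with matches to the motifs named below in capitals. Lgals4 lies at chr7:28833544-28833793, Prap1 at chr7:140093146-140093395 and Fabp1 at chr6:71199629-71199878, all on the + strand.
Lgals4: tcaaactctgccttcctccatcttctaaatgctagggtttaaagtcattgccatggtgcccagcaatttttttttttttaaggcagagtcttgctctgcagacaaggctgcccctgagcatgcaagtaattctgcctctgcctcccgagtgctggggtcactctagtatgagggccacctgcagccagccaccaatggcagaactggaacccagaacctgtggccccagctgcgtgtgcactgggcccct
Prap1: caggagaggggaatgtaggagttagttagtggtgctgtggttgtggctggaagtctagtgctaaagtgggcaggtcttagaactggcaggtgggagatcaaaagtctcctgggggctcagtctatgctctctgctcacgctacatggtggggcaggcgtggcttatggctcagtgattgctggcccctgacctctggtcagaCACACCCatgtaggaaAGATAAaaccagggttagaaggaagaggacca
Fabp1: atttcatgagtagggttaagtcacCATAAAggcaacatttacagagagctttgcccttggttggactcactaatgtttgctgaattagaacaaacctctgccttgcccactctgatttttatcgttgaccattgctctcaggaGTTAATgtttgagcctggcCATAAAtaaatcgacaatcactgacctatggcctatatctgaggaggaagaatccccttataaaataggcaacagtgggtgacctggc

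In those windows, the GATA core AGATAA began 32 bases before the start of Prap1, and the KLF core GGGTGTG lay 48 bases before it on the other strand. The CDX core TTTATG lay 226 and 88 bases before the start of Fabp1 on the other strand, and the HNF1 motif GTTAAT lay 107 bases before it. The Lgals4 window held none of the 6 motifs searched on both strands, which also included the HNF4 site CAAAGTCCA and the FOXA core TGTTTAC. Among all 27025 genes of the table, the share with a match was 11.1% for TTTATG, 10.3% for AGATAA, 6.52% for GTTAAT, 0.381% for CAAAGTCCA, 3.09% for TGTTTAC and 6.85% for GGGTGTG. Of the 39 genes that were at least 2-fold higher in trefoil-expressing cells in each library, described below, 26 were in the table. Of these 26, 2 held TTTATG, 3 held AGATAA, 3 held GTTAAT, 1 held CAAAGTCCA, 1 held TGTTTAC and 4 held GGGTGTG, counts too small to set against the shares of all genes. Matches describe letters only and are not sites of binding.

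The cells came from all 3 libraries, 28 from PBS, 13 from mono-IL10 and 71 from IL10/2-Trikine tumors. By mouse, PBS mice 1 to 5 gave 0, 21, 1, 5 and 1 cells. The mono-IL10 mice gave 3, 6, 0, 1 and 3 cells. The IL10/2-Trikine mice gave 12, 32, 4, 6 and 17 cells. PBS mouse 2 and IL10/2-Trikine mouse 2 gave the most cells of their groups, and 10 mice held 3 or more.

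Near the limits, 16 of the 112 cells had exactly 2 Tff1 UMIs and 20 had exactly 2 Lgals4 UMIs. Just outside, 35 cells met every other limit with 1 Tff1 UMI, and 13 with 1 Lgals4 UMI. A further 59 cells had exactly 1 Hmga2 UMI and 166 had 2 or more, so the Hmga2 limit set aside 225 cells that otherwise qualified. The Ptprc limit set aside 12 cells and the C1q limit 7. The hashtag limit set aside 230 barcodes, and it kept 43.8% of otherwise qualifying barcodes in the PBS library, 26.0% in the mono-IL10 library and 31.1% in the IL10/2-Trikine library. Among all tumor epithelial barcodes it kept 27.9%, 50.2% and 32.4%.

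Tff2 and Dmbt1 were not used by the limits. They are marker genes of these cells, chosen with earlier results of these data known, so their levels are descriptions. Tff2 had at least 1 UMI in 108 of the 112 cells, with 0 as the lowest, 17.5 as the median and 214 as the highest count. Dmbt1 had at least 1 UMI in 93 cells, with a median of 5 and a highest count of 91. Both genes were present in 90 cells and neither in 1. Cells differ in depth, so each was also thinned to 5000 UMIs, which left out 3 IL10/2-Trikine cells. The share with a Tff2 UMI was then 92.9% of 28 PBS cells (Wilson 95% interval 77.4 to 98.0), 84.6% of 13 mono-IL10 cells and 86.8% of 68 IL10/2-Trikine cells. In other tumor epithelial cells at the same depth the shares were 7.92%, 6.02% and 7.34%. Dmbt1 was found in 75.0%, 84.6% and 73.5% of thinned trefoil-expressing cells, against 26.6%, 19.9% and 27.4% of other tumor epithelial cells. Such intervals cover counting error only.

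Free RNA in droplets can place a few UMIs in cells that do not make a gene, so the same limits on Tff1 and Lgals4 were read in cells that should lack both. None of the 516 PBS, 843 mono-IL10 and 725 IL10/2-Trikine T and NK cells annotated by the authors had 2 UMIs of each gene, which allows shares of up to 0.739%, 0.454% and 0.527% (Wilson). These lymphocytes were shallower, with medians of 2780, 3959 and 2635 UMIs. The count of 0 was set by Lgals4, which had 2 UMIs in none of them. Tff1 alone had 2 UMIs in 5 PBS (0.969%), 7 mono-IL10 (0.830%) and 3 IL10/2-Trikine (0.414%) lymphocytes, against 4.74%, 3.36% and 3.03% of the deeper tumor epithelial cells. In the larger set of Ptprc-positive barcodes with at most 1 keratin UMI, Tff1 had 2 UMIs in 0.167%, 0.148% and 0.0773%. None of these 33791 Ptprc-positive barcodes had 2 of each either, at medians of 6222, 7263 and 3538 UMIs. Both Tff1 and Lgals4 had 2 UMIs in 3.86%, 2.52% and 2.08% of tumor epithelial cells before the Hmga2 limit. Lgals4, with or without Tff1, had 2 UMIs in 52.7%, 47.7% and 31.4% of them, and none of these shares was set at equal depth. No trefoil-expressing cell was in the authors' T and NK table, none had over 3 times the median UMI count of its library's tumor epithelial cells, and 1 PBS cell shared its barcode with a cell of another library.

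Few genes of the trefoil and mucin list were well expressed. Of 26 trefoil and mucin genes, 5 reached a mean of 20 CPM (UMIs of a gene per 1000000 UMIs summed over the cells) in trefoil-expressing or other tumor cells, among them Tff1 and Tff2. Muc1, a mucin of the cell membrane, stood at 228 CPM in PBS, 161 CPM in mono-IL10 and 149 CPM in IL10/2-Trikine cells, against 118, 85.8 and 109 CPM in other tumor epithelial cells. Gcnt3, an enzyme that branches mucin sugars, stood at 58.6, 67.8 and 54.4 CPM against 20.7, 18.3 and 25.0 CPM. Besides Tff1, 4 genes of this list reached 20 CPM in the other tumor cells, and of these Tff2 alone was at least 2-fold higher in each library. The gel-forming mucins of the stomach were close to absent. Muc5ac had 5 UMIs and Muc6 had 1 UMI over all 112 cells, Muc2 of the intestine had none, and Tff3, the intestinal trefoil peptide, had 9. Agr2, which folds mucins, had 20 UMIs. Gastric Gkn1 had 7 UMIs and Cldn18 had 2.

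Tff1 and Lgals4 chose the cells, so their levels only describe them. In summed UMIs of each mouse with at least 3 trefoil-expressing cells, Tff1 stood at 1444 and 475 CPM in PBS mice 2 and 4. The mono-IL10 mice 1, 2 and 5 had 1413, 526 and 222 CPM, and IL10/2-Trikine mice 1 to 5 had 1723, 741, 1485, 591 and 674 CPM. Single cells reached 493 Tff1 UMIs, against a median of 6, and the groups overlapped.

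Tff2, encoding the trefoil peptide of gastric neck cells, stood at 1559 and 4400 CPM in the PBS mice. It stood at 1453, 1924 and 969 CPM in the mono-IL10 mice and at 1389, 1540, 3264, 1912 and 2186 CPM in the IL10/2-Trikine mice. The lowest mouse was mono-IL10 mouse 5 and the highest PBS mouse 4, and in each of these 10 mice Tff2 was higher than in the other tumor epithelial cells of that mouse, which held 32.9 to 138 CPM. Dmbt1 stood at 610 and 1685 CPM in the PBS mice. In the mono-IL10 mice it stood at 1013, 737 and 238 CPM, and in the IL10/2-Trikine mice at 440, 631, 147, 1774 and 279 CPM. Its spread within the IL10/2-Trikine group took in the levels of all mice of the other groups, and the other tumor epithelial cells of the same mice held 87.7 to 197 CPM. Lgals4 ranged from 254 to 1186 CPM over the 10 mice, both ends in the mono-IL10 group, against 97.4 to 191 CPM in other tumor epithelial cells.

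**Figure D1:**
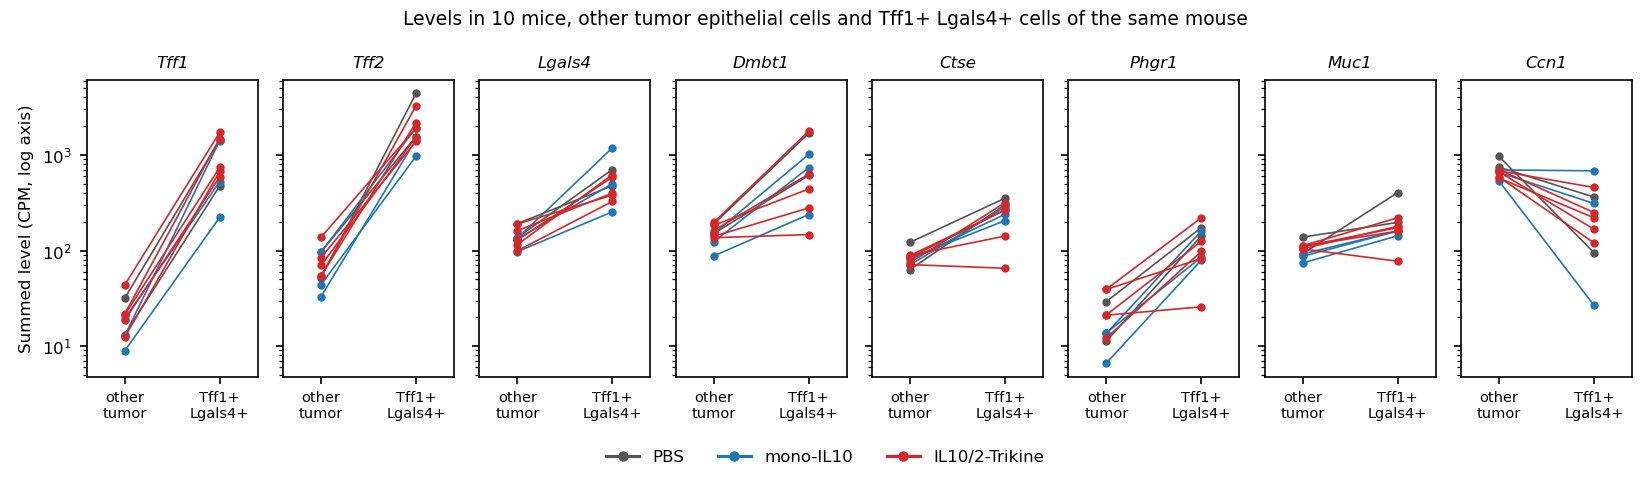
Summed level (CPM, log axis) of 8 genes (Tff1, Tff2, Lgals4, Dmbt1, Ctse, Phgr1, Muc1 and Ccn1) in trefoil-expressing cells (labelled Tff1+ Lgals4+) and in the other tumor epithelial cells of the same mouse, 1 point per mouse for the 10 mice with at least 3 trefoil-expressing cells. Tff2, which the limits did not use, sits at 969 CPM or more in trefoil-expressing cells and at 138 CPM or less in the other cells.

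Tff2 and Dmbt1, which the limits did not use, were also set against each other cell by cell. Over cells thinned to 5000 UMIs within 1 library, Spearman's rho between them was 0.31 in PBS (28 cells), 0.54 in mono-IL10 (13 cells) and 0.05 in IL10/2-Trikine (68 cells). These counts are sparse and cells of a library share their depth and free RNA, so the values are descriptions. Clu and Lbp, acute-phase genes that mark another share of the tumor cells, both reached 2 UMIs in 22 of the 112 cells. Among the 12990 other tumor epithelial cells, both reached 2 UMIs in 5073. These counts were not set at equal depth.

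Against all other tumor epithelial cells, 39 of 6426 genes were at least 2-fold higher in trefoil-expressing cells in each of the 3 libraries (0.607%), and 55 were at least 2-fold lower (0.856%). A gene entered with a mean of at least 20 CPM in either kind of cell, and differences were read as log2(CPM + 5). The median difference over all 6426 genes was -0.18 on the log2 scale. A gene under 20 CPM in one kind of cell entered only if it reached 20 CPM in the other kind. The limit thus set the direction of such a gene, but not the size of its difference. Of the 39 higher genes, 23 entered only through trefoil-expressing cells, and of the 55 lower genes, 36 entered only through the other cells. Among the 5484 genes with at least 20 CPM in both kinds, 16 were higher (0.292%) and 19 lower (0.346%), with a median of -0.15. Among the 6195 genes with a mean of at least 20 CPM in the other tumor epithelial cells, a limit that does not read the trefoil-expressing cells, 16 were higher (0.258%) and 55 lower (0.888%), and the median was -0.19. Gene lists below are counted over these 6195 genes. Both kinds of cell were split by genes of the same transcriptomes, so these counts carry no test. They also include genes that the limits used. Tff1 and Lgals4 are among the 39 higher genes, and Lgals4 is among the 16. Hmga2 is among the 55 lower genes and the 36 that entered only through the other cells. The selection set the direction of Tff1, Lgals4 and Hmga2, and the gene lists below leave them out of their counts.

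Several genes known from gut epithelium stood higher. Prap1, a secreted proline-rich protein of the small intestine, stood at 89.9, 79.1 and 150 CPM in PBS, mono-IL10 and IL10/2-Trikine cells, against 10.5, 6.38 and 12.7 CPM in the other tumor epithelial cells. Phgr1, an epithelial gene of the gut, stood at 96.0 to 149 CPM against 11.4 to 24.9 CPM over the 3 libraries. Vil1, encoding the microvillus protein villin, stood at 45.2 to 52.1 CPM against 14.7 to 21.0 CPM. Gpa33, a surface antigen of intestinal epithelium, stood at 26.6 to 45.2 CPM against 6.96 to 10.7 CPM. Fabp1, encoding a fatty acid-binding protein of liver and intestine, was nearly silent elsewhere, at 0.463 to 0.659 CPM, and stood at 7.82 CPM in PBS, 53.6 CPM in mono-IL10 and 15.7 CPM in IL10/2-Trikine cells. Phgr1, Vil1, Gpa33 and Fabp1 are on the intestinal-type list, but all 4 averaged under 20 CPM in the other tumor cells. The entry limit thus set their direction, as it did for Prap1. Besides Lgals4, 4 genes of that list reached 20 CPM there. Of these, Dmbt1 alone was at least 2-fold higher in each library and none was lower, with a median log2 difference of 0.64 against -0.19 for all genes.

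Some gastric-type genes also stood higher. Sult1c2, a sulfotransferase, stood at 166 to 194 CPM against 45.4 to 54.1 CPM and was higher in 10 of 10 mice. Ctse, encoding the aspartic protease cathepsin E, stood at 330, 217 and 220 CPM against 93.5, 78.0 and 85.0 CPM, higher in 9 of 10 mice. Of 6 gastric-type genes counted besides Tff1, 3 (Tff2, Sult1c2 and Ctse) were at least 2-fold higher in each library and none lower, with a median log2 difference of 1.25. Anxa10, an annexin of gastric epithelium, stood at 624, 378 and 296 CPM against 216, 224 and 174 CPM, and Vsig1 did not stand apart, at 234 to 285 CPM against 265 to 285 CPM. The classical pancreatic cancer list held 7 counted genes with a median of 0.86, and 2 of them, Tff2 and Ctse, which are also on the gastric-type list, were at least 2-fold higher in each library. The basal-like list held 7 counted genes, none past 2-fold, with a median of -0.09.

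Other genes that stood higher included Car2, Rbp2 and Cftr, of which Rbp2 and Cftr were chosen after their values were seen. Car2, a carbonic anhydrase, stood at 408, 356 and 420 CPM against 101, 78.5 and 114 CPM. It was higher in 9 of 10 mice, but unevenly. PBS mice 2 and 4 held 396 and 776 CPM against 117 and 71.3 CPM. The mono-IL10 mice 1, 2 and 5 held 1413, 70.2 and 95.3 CPM against 75.1, 90.4 and 61.1 CPM. IL10/2-Trikine mice 1 to 5 held 433, 744, 147, 124 and 120 CPM against 99.6, 125, 127, 78.8 and 105 CPM. Gpx2, the glutathione peroxidase of the gut, stood at 13.0, 64.9 and 58.1 CPM against 5.67, 3.89 and 6.88 CPM, which was under 2-fold on the log2(CPM + 5) scale in PBS. Rbp2, which carries retinol in absorptive cells, stood at 465 to 613 CPM against 147 to 204 CPM. Cftr, the chloride channel of secretory epithelia, stood at 52.1 to 141 CPM against 13.3 to 23.1 CPM. Gpx2 and Cftr also averaged under 20 CPM in the other tumor cells. The 15 genes with the highest mean log2 difference over the 2 mice with at least 20 trefoil-expressing cells included others that are only named. Ckmt1, Otop3, Mucl3, Sult1d1, Smim31, Lgals7 and the chemokine gene Cxcl11 all averaged under 20 CPM in the other tumor cells too. Lgals7 also averaged under 20 CPM in trefoil-expressing cells. Lgals7 was higher in 5 of 10 mice and lower in 5, and Cxcl11 was higher in 4 and lower in 6.

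**Figure D2:**
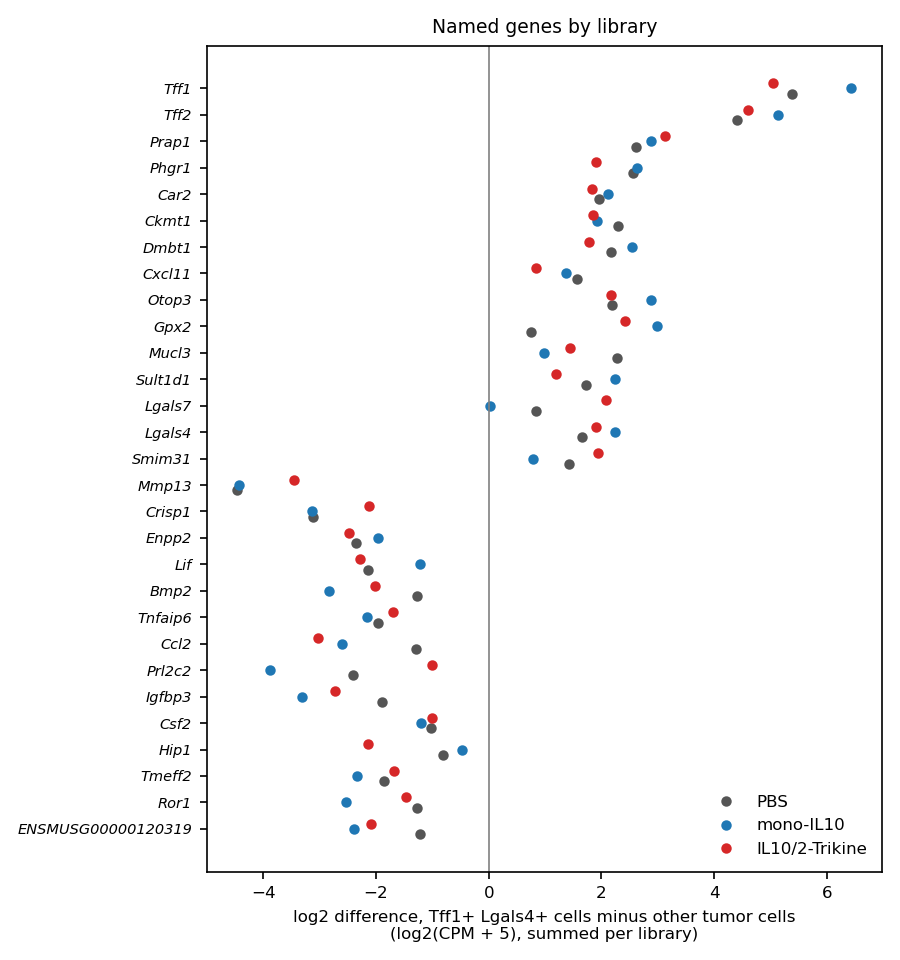
Difference in log2(CPM + 5) between trefoil-expressing and other tumor epithelial cells for the 15 highest and 15 lowest genes by the naming rule, 1 point per library. Hmga2, 1 of the 15 lowest, is not drawn. Tff1 and Lgals4 were set by the limits. Mmp13 lies lowest, and Tff1 and Tff2 highest.

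Among the 15 lowest genes by the naming rule, Mmp13, Enpp2, Lif and Ccl2 are described by library. Mmp13, a collagenase, had 1 UMI over all 112 cells and stood at 49.8 to 164 CPM in the other tumor epithelial cells of the 3 libraries. Enpp2, encoding autotaxin, stood at 3.91, 11.3 and 6.05 CPM against 40.7, 58.2 and 56.6 CPM. Lif, a cytokine of the IL-6 family, stood at 2.61, 11.3 and 1.21 CPM against 28.7, 33.0 and 25.3 CPM. Mmp13, Enpp2 and Lif averaged under 20 CPM in trefoil-expressing cells and entered through the other cells alone, so the limit set their direction. Ccl2 and Csf2 were above 20 CPM in both kinds. Ccl2, a chemokine for monocytes, stood at 125, 53.6 and 25.4 CPM against 313, 352 and 243 CPM, lower in 10 of 10 mice. Csf2, encoding GM-CSF, stood at 33.9 to 46.9 CPM against 73.4 to 104 CPM, lower in 9 of 10. Igfbp3, Bmp2, Tnfaip6, Prl2c2, Crisp1, Ror1, Tmeff2, Hip1 and the unnamed gene ENSMUSG00000120319 completed the 15 lowest with Hmga2, and all 9 entered through the other cells alone. The level of many of these genes in trefoil-expressing cells rested on under 40 UMIs.

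Of 20 NF-kB and chemokine genes counted, 3 (Ccl2, Csf2 and Cxcl2) were at least 2-fold lower in each library and none higher, with a median of -0.49 (-0.34 over the 18 at 20 CPM in both kinds of cell). Of 17 YAP target genes, 2 (Ccn1 and Ccn2) were at least 2-fold lower and the median was -0.60 (-0.54 over 16 in both kinds). Ccn1 stood at 213 to 302 CPM against 662 to 818 CPM. Of 14 mesenchymal genes besides Hmga2, 1 (S100a4) was at least 2-fold lower, with a median of -0.82 (-0.79 over 13 in both kinds). Vim, encoding vimentin, stayed abundant at 2565, 2956 and 2063 CPM against 3385, 4066 and 2660 CPM, so these cells were keratin-positive and vimentin-positive like the rest. The 15 junction and keratin genes counted had none past 2-fold and a median of 0.31. Among them, the desmosome gene Dsp stood at 134 to 189 CPM against 61.6 to 74.6 CPM.

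Transcription factors of gut endoderm differed little. None of the 12 counted was 2-fold apart in each library, and their median was 0.25. Hnf4a, a regulator of gut and liver epithelium, stood at 78.2, 107 and 69.0 CPM against 76.0, 74.7 and 65.8 CPM. Gata6, the factor most used to mark classical pancreatic tumors, stood at 93.8, 73.4 and 70.2 CPM against 103, 95.4 and 99.3 CPM. Sox9, a duct factor, stood at 178 to 206 CPM against 316 to 343 CPM, lower in 9 of 10 mice. Cdx1 had no UMI and Cdx2 had 11. Tyrp1, a melanocyte gene, stood at 48.0 to 56.9 CPM against 37.8 to 51.1 CPM.

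Antigen presentation and interferon genes stood near the other tumor cells. The median was -0.09 for 14 genes of MHC class I presentation, 0.35 for 6 of MHC class II, -0.01 for 7 induced by type I interferon and -0.09 for 15 induced by interferon gamma, with none past 2-fold in each library in either direction. The hypoxia list had a median of -0.14 over 19 genes, with Pgf, which entered through the other cells alone, the 1 gene lower, and the unfolded protein response -0.01 over 18.

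**Figure D3:**
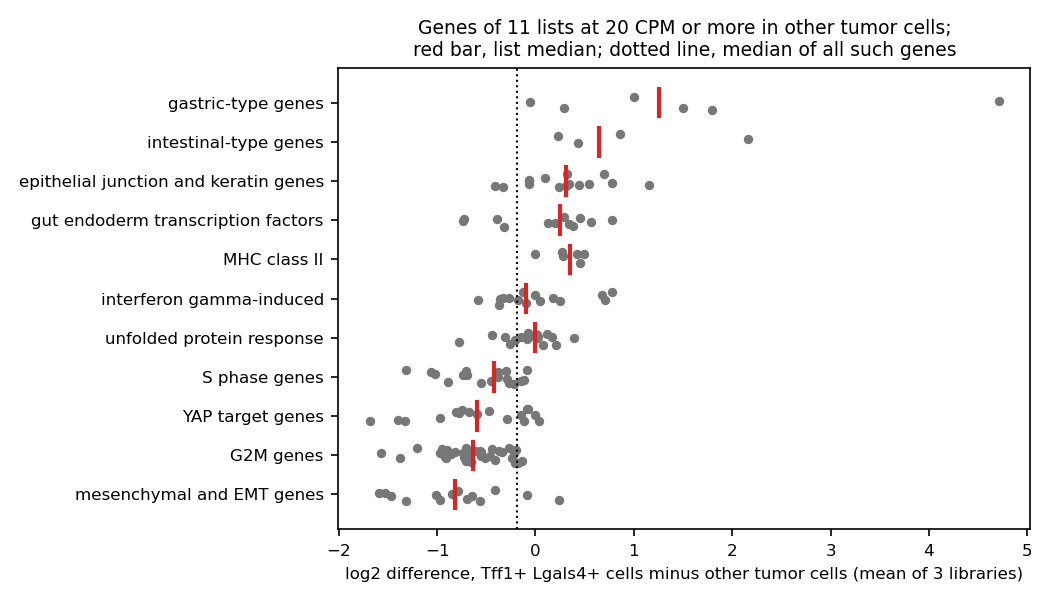
Difference in log2(CPM + 5) between trefoil-expressing and other tumor epithelial cells for the genes of 11 lists, as the mean of 3 libraries, 1 point per gene at 20 CPM or more in the other tumor epithelial cells and a red bar at the list's median. The gastric-type median (1.25) rests on 6 genes and the intestinal-type median (0.64) on 4, mesenchymal genes (-0.82) have the lowest median of the 11, and the dotted line is the median of all such genes (-0.19).

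RNA of other cell types was read in the same droplets. Of 16 macrophage markers, 4 reached a mean of 20 CPM in the other tumor epithelial cells, and 2 of these did so in trefoil-expressing cells too. All 16 together summed to 3820 to 8178 CPM in trefoil-expressing cells. This sum came almost wholly from Spp1, which the other tumor epithelial cells held at 7325 to 8871 CPM. Lyz2 stood at 4.84 to 16.9 CPM and Apoe at 10.4 to 19.4 CPM, against 5200 and 10410 CPM in the immune barcodes of the PBS library. T cell markers summed to 5.65 to 12.1 CPM with 6 of 10 at 0, NK cell markers to 2.42 to 5.65 CPM with 5 of 9 at 0, and endothelial markers to 2.82 to 9.68 CPM with 4 of 9 at 0. Dendritic cell markers summed to 259 CPM in PBS, 302 CPM in mono-IL10 and 167 CPM in IL10/2-Trikine cells, against 176, 212 and 197 CPM in other tumor epithelial cells. That sum came almost wholly from the MHC class II gene H2-Aa, and 7 of the 10 were at 0. Only 16 of the 112 cells had no UMI of C1qa, C1qb, C1qc, Lyz2, Tyrobp or Cd74. Cd74 is on the MHC class II list, and the other tumor epithelial cells of 10 mice held it at 519 to 1069 CPM. The remaining cells are therefore not a count of cells with macrophage RNA. Neutrophil markers summed to 2.82 to 46.9 CPM, against 39.9 to 161.5 CPM in other tumor epithelial cells, and all B cell and erythroid markers were at 0. Fibroblast markers summed to 1570 CPM in PBS, 147 CPM in mono-IL10 and 36.3 CPM in IL10/2-Trikine cells. In PBS they came largely from 1 cell with 611 Col1a1 UMIs, while 105 of the 112 cells had no Col1a1. Their part in the gene differences was not tested.

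Cells that met every limit but carried Hmga2 were described beside them. These 225 cells, 77 from PBS, 80 from mono-IL10 and 68 from IL10/2-Trikine tumors, were deeper, with medians of 49590, 50540 and 15540 UMIs against 24970, 28320 and 10810 UMIs in trefoil-expressing cells. At 5000 UMIs, Tff2 was found in 80.5%, 85.0% and 73.8% of them, and Dmbt1 in 41.6%, 51.2% and 47.7%. Tff2 stood at 952, 985 and 1065 CPM, between the 1826, 2126 and 1858 CPM of trefoil-expressing cells and the 81.1, 56.0 and 71.9 CPM of other tumor epithelial cells. Mmp13 likewise stood in between, at 31.4, 33.4 and 17.9 CPM. Not every gene lay in between. Csf2 stood at 126, 132 and 124 CPM, above both the trefoil-expressing cells and the other tumor epithelial cells. In the IL10/2-Trikine library Tff1, Phgr1 and Muc1 stood at 1015, 114 and 174 CPM, against 921, 107 and 149 CPM in trefoil-expressing cells.

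The share of cells with RNA of the cell cycle gene Top2a was lower than in other tumor epithelial cells in each library, within wide intervals. At 5000 UMIs, Top2a was found in 17.9% of PBS (Wilson 95% interval 7.88 to 35.6), 7.69% of mono-IL10 (1.37 to 33.3) and 25.0% of IL10/2-Trikine cells (16.2 to 36.4), against 35.7%, 33.6% and 35.4% of other tumor epithelial cells. For Mki67 the shares were 4 of 28 (14.3%), 0 of 13 (Wilson upper limit 22.8%) and 14 of 68 (20.6%), against 604 of 2602 (23.2%), 797 of 3623 and 1278 of 5913 (21.6%). Without thinning, Mki67 was found in 25.0%, 30.8% and 29.6% against 46.3%, 47.7% and 33.1%. Cells that met every limit but carried Hmga2 had Mki67 in 64.9%, 48.8% and 45.6%, also without thinning. Their median depth was 49590, 50540 and 15540 UMIs, against 27590, 35600 and 10500 UMIs in other tumor epithelial cells. These shares were thus not at equal depth. The G2M list had a median log2 difference of -0.64 over 38 genes (-0.56 over 33 in both kinds of cell) and the S phase list -0.42 over 18, with none of either past 2-fold in each library. The upper ends of the Top2a intervals lay close to the shares of the other tumor epithelial cells in all 3 libraries. Only 1 PBS and 1 IL10/2-Trikine mouse had the 20 cells set for a test over mice, so treatments were not compared here.

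The study's design compares the treatments, and the share of tumor epithelial cells that met the limits was read in each mouse. In PBS mice 1 to 5, 0, 1.57, 0.366, 0.931 and 0.295% of tumor epithelial cells were trefoil-expressing, 0.633% ± 0.625 (SD, n = 5). In the mono-IL10 mice the shares were 0.509, 0.879, 0, 0.222 and 0.165%, 0.355% ± 0.346 (SD, n = 5). In the IL10/2-Trikine mice they were 1.05, 0.967, 1.03, 1.74 and 1.13%, 1.19% ± 0.318 (SD, n = 5). Of the IL10/2-Trikine mice, 4 lay between 0.967 and 1.13% and mouse 4 at 1.74%, all above the highest mono-IL10 mouse, while the PBS mice spread across both groups.

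The share was higher in IL10/2-Trikine than in mono-IL10 tumors by 0.830 percentage points (exact two-sided permutation test over mice, p = 0.00794, the smallest that 252 splits allow, Benjamini-Hochberg adjusted over 3 comparisons p = 0.0238, higher in 5 of 5 mice). Against PBS the IL10/2-Trikine difference was 0.551 points (exact permutation p = 0.0873, adjusted p = 0.131). Leaving out each of the 10 mice in turn gave 0.393 to 0.787 points, and 9 of these runs did not pass. The run that passed left out PBS mouse 2, the highest PBS mouse (0.787 points, exact permutation, adjusted p = 0.0119). The mono-IL10 and PBS shares differed by -0.279 points (exact permutation p = 0.444, adjusted p = 0.444), less than the spread between mice. The hashtag limit moved with this result too, since in the mono-IL10 library it kept 26.0% of otherwise qualifying barcodes and 50.2% of all tumor epithelial barcodes. Over all tumor epithelial barcodes whatever their hashtag, the share was 0.656% in PBS (64 of 9763), 0.680% in mono-IL10 (50 of 7358) and 1.11% in IL10/2-Trikine (228 of 20633), values per library that could not be tested over mice. Labels do not state more of how the mice relate than their hashtags, so these p-values measure the spread between hashtagged mice of 1 library per treatment.

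**Figure D4:**
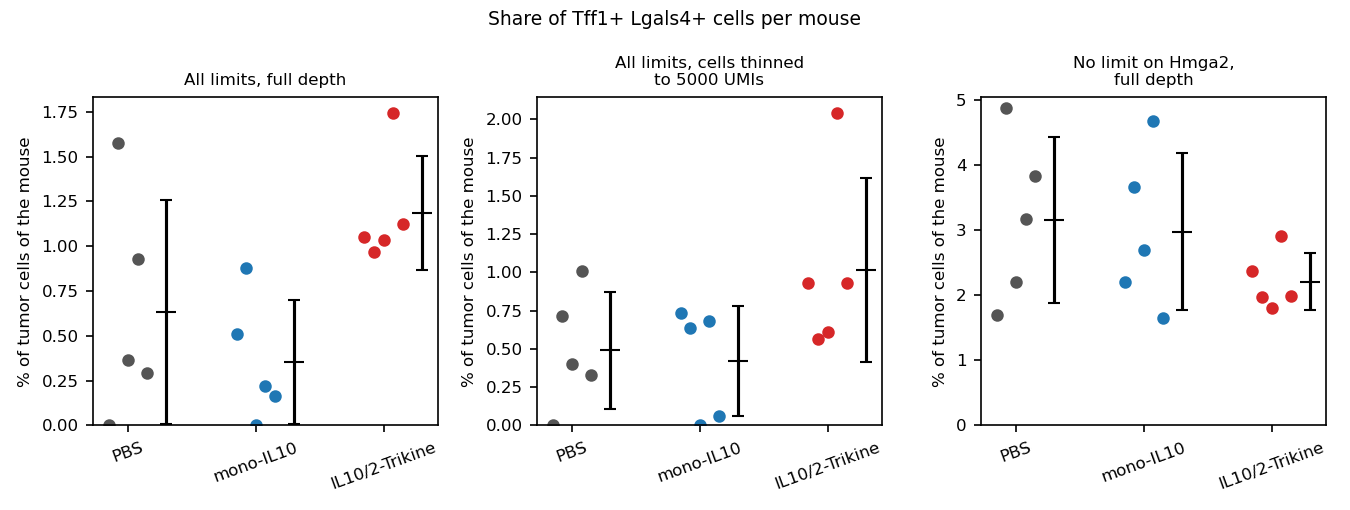
Trefoil-expressing cells as a percent of the tumor epithelial cells of each mouse, 1 point per mouse, with the mean and SD in black (n = 5 per group), at the given limits, with cells thinned to 5000 UMIs, and with no limit on Hmga2. At the given limits the 5 IL10/2-Trikine mice lie between 0.967 and 1.74%, all above the mono-IL10 mice, and in the other panels the groups overlap.

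Depth moved with this result. The IL10/2-Trikine library was the shallowest, and cells with no Hmga2 UMI were more frequent among shallow cells. In the PBS library, the share of tumor epithelial cells without Hmga2 went from 70.0% below 5000 UMIs to 4.12% above 40000 UMIs. In the mono-IL10 library it went from 42.9% to 1.70%, and in the IL10/2-Trikine library from 64.5% below 5000 UMIs to 6.05% at 20000 to 40000 UMIs. Within bins of depth, trefoil-expressing cells were 1.47% of PBS, 0.982% of mono-IL10 and 1.08% of IL10/2-Trikine tumor epithelial cells at 10000 to 20000 UMIs, and 0.990%, 0.398% and 1.25% at 20000 to 40000 UMIs. With every tumor epithelial cell thinned to 5000 UMIs, the difference between IL10/2-Trikine and mono-IL10 was 0.594 points (exact permutation, adjusted p = 0.190), so the call was lost. Within 10000 to 20000 UMIs, where 5 IL10/2-Trikine, 3 mono-IL10 and 2 PBS mice had 50 tumor epithelial cells, it was -0.160 points (exact permutation, adjusted p = 1.0, where the smallest unadjusted p was 0.0179). The 3 mono-IL10 mice held 3.70% (2 of 54 cells), 0% and 0.654% in this range. With no limit on Hmga2 the difference was -0.766 points (exact permutation, adjusted p = 0.357). The call was thus made at the given limits, and not at 5000 UMIs or within 10000 to 20000 UMIs. The bin of 20000 to 40000 UMIs was not tested over mice.

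**Figure D5:**
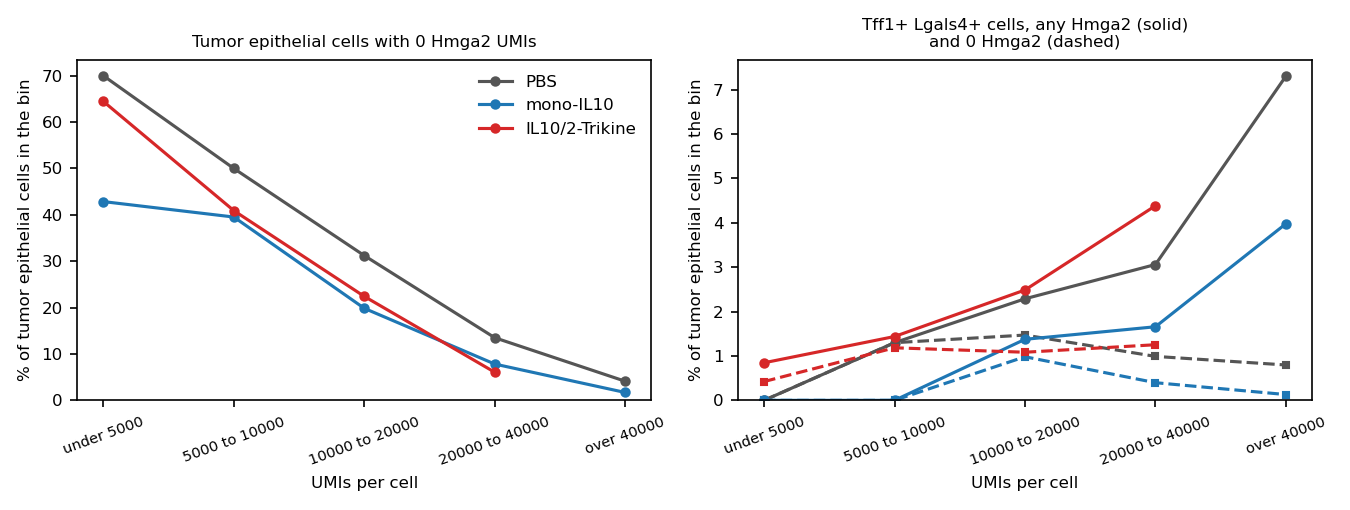
Share of tumor epithelial cells without an Hmga2 UMI, and share with Tff1 and Lgals4 with any Hmga2 (solid) or none (dashed), by UMIs per cell in each library, for bins with at least 50 cells. The share without Hmga2 goes down with depth in all 3 libraries, from 70.0% to 4.12% in PBS.

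Within trefoil-expressing cells, no gene was called between treatments. Counts were summed over the cells of each mouse with at least 3 of them, 2 PBS, 3 mono-IL10 and 5 IL10/2-Trikine mice, and 2790 genes were tested with edgeR's quasi-likelihood test. At a Benjamini-Hochberg adjusted p of 0.05, 0 genes (0%) were called in each comparison. At an unadjusted p of 0.05 there were 178 (6.38%) between IL10/2-Trikine and PBS, 149 (5.34%) between IL10/2-Trikine and mono-IL10 and 103 (3.69%) between mono-IL10 and PBS. DESeq2 on the same sums called 0, 2 and 0. The minimum of 3 cells was chosen after it was seen that 2 mice had 20. Counts were also simulated at the summed UMIs of these mice and 1 assumed spread. There the fit recovered 5.95% of 2-fold changes between IL10/2-Trikine and PBS, and 8.65% between IL10/2-Trikine and mono-IL10. For 4-fold changes it recovered 84.6% and 87.8%. A gene that was not called may thus still differ by 2-fold.

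The marker genes did not pass this test. For Tff2 the log2 fold change was -0.47 (SE 0.37, edgeR adjusted p = 0.862) between IL10/2-Trikine and PBS, 0.45 (SE 0.34, edgeR adjusted p = 0.916) between IL10/2-Trikine and mono-IL10, and -0.93 (SE 0.41, edgeR adjusted p = 0.999) between mono-IL10 and PBS. For Dmbt1 these were -0.79 (SE 0.59), -0.14 (SE 0.55) and -0.65 (SE 0.66), with edgeR adjusted p of 0.862, 0.990 and 0.999. Anxa10 had 677 and 641 CPM in the PBS mice and 81.6 to 381 CPM in the IL10/2-Trikine mice, with no overlap, but a log2 fold change of -1.22 (SE 0.32) did not pass (edgeR adjusted p = 0.651). The lowest adjusted p between IL10/2-Trikine and PBS, 0.0540 by edgeR, belonged to Col1a2, where the PBS library held the 1 cell with 611 Col1a1 UMIs. Between IL10/2-Trikine and mono-IL10 the lowest belonged to Sqstm1, an autophagy receptor, at 373 against 988 CPM with a log2 fold change of -1.38 (SE 0.26, edgeR adjusted p = 0.0892).

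By gene list, 0 of 5 trefoil and mucin genes, 0 of 7 gastric-type and 0 of 7 intestinal-type genes were called in any comparison. Of all genes tested, 0% were called. The trefoil and gastric-type counts include Tff1 and the intestinal-type count includes Lgals4. The limits used these genes, so no result is read for them. Of 18 G2M genes tested between IL10/2-Trikine and PBS, 0 were called, 10 were higher at an unadjusted p of 0.05, beside 76 of all 2790 genes (2.72%), and their median log2 fold change was 1.26 against -0.004 for all genes. For these 18 genes the median was 0.256 between IL10/2-Trikine and mono-IL10 (-0.04 for all genes) and 0.879 between mono-IL10 and PBS (0.02). At an unadjusted edgeR p of 0.05, 1 and 2 of them were higher, beside 62 and 38 of all 2790 genes. Hmgb2, a chromatin protein of dividing cells, stood at 952 CPM in IL10/2-Trikine and 300.4 CPM in PBS mice (mean over mice, edgeR adjusted p = 0.667).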

How the data were processed

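Gene and hashtag UMI counts had been made and deposited by the authors with Cell Ranger (filtered barcodes, build GRCm39, GEM-X 5' chemistry), with no normalization. The submitters' processing notes also name Seurat 5.1.0 and DESeq2 1.46.0. The authors' table of T and NK cells, with library names and barcodes, served only to read background, and it holds cells of a group not used here. There were 0 per-sample value columns of other samples. Doublets were limited by the hashtag share, with no doublet caller.

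Members and lists were chosen with earlier results of these data known. Levels are CPM of summed UMIs, and differences used a pseudocount of 5 CPM. Named genes were the 15 highest and 15 lowest over mice with at least 20 cells, plus the markers and up to 4 genes per list. The planned minimum of 20 cells per mouse left 2 mice, so 3 was used. Shares were tested by exact permutation over mice, and summed counts by edgeR 4.0.16 in R 4.3.3 (filterByExpr, TMM), with DESeq2 1.42.0 as an alternative. Scripts ran in Python 3.11.15 with scipy 1.17.1 and were tested on simulated data. Hashtag numbers name mice and do not pair them.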

Additional observations from a re-analysis of the deposited data

Results flagged for a closer look

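The share of trefoil-expressing cells in IL10/2-Trikine mouse 4, 1.74% (6 of 344 tumor epithelial cells), stood apart from the other 4 mice of its group, with a gap of 0.794 of the group's range against a critical value of 0.71 (Dixon's test). It was the 1 outlier among 7 sets of values examined. These were the shares in each treatment group, and the levels of Tff1, Tff2, Lgals4 and Dmbt1 in the IL10/2-Trikine mice. The sets of the IL10/2-Trikine group come from the same mice and are not independent, and chance alone flags about 1 set in 20.

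Barcodes without 1 leading hashtag belong to no mouse and entered no comparison. Among those otherwise counted as tumor epithelial, 37 of 3666 in the mono-IL10 library (1.01%, Wilson 95% interval 0.733 to 1.39) and 157 of 13943 in the IL10/2-Trikine library (1.13%, 0.964 to 1.32) met the Tff1, Lgals4 and Hmga2 limits, against 36 of 7043 in the PBS library (0.511%, 0.370 to 0.707). The difference between the libraries was not tested over mice.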

How the results depend on the processing

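Values are differences in share in percentage points, or genes called. For IL10/2-Trikine against mono-IL10 (0.830) the direction held and the call was lost on thinning to 5000 UMIs (0.594), at 4 UMIs of Tff1 and Lgals4 (0.338), and, chosen after seeing the data, with no Hmga2 limit on thinned cells (0.669). At a hashtag share of 0.9 it was 0.388, but 3 mice each allow no p below 0.1, so no call could be made. It reversed with no Hmga2 limit (-0.766) and within 10000 to 20000 UMIs (-0.160), both also chosen after seeing the data. For IL10/2-Trikine against PBS (0.551) it reversed at a hashtag share of 0.9 (-0.472, 1 PBS mouse), with no Hmga2 limit (-0.945) and within 10000 to 20000 UMIs (-0.157), and it passed with all retained barcodes as denominator (0.220, adjusted p = 0.0357, exact permutation). For mono-IL10 against PBS (-0.279) it reversed within 10000 to 20000 UMIs (0.00328). The cause of these changes was not tested. Leaving out each mouse in turn gave 0.690 to 0.961, 0.393 to 0.787 and -0.437 to -0.0433; the second passed only without PBS mouse 2.

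Genes called for IL10/2-Trikine against PBS, IL10/2-Trikine against mono-IL10 and mono-IL10 against PBS were 33, 11 and 22 with no filter on low counts, and 18, 1 and 2 with at least 5 cells per mouse (chosen after seeing the data). DESeq2 called 2 for the second, a fit of only the groups compared called 1 for the first, and 4 UMIs called 1 for the third. Leaving out each mouse gave 0 to 13, 0 to 3 and 0 to 6, with 13 and 6 without PBS mouse 4, 1 for the first without PBS mouse 2, and 3 without mono-IL10 mouse 2 or 5; a group left with 1 mouse is assumed to vary like the others. Too few mice qualified for fits on at least 50 cells per mouse or on cells without C1qa, C1qb, C1qc, Lyz2, Tyrobp or Cd74 UMIs. These fits and, for the same reason, every alternative for Mki67 were not run. No paired analysis was possible because hashtag numbers only name mice within a library. Among genes at 20 CPM or more in the other tumor epithelial cells, a limit chosen after seeing the data, 16 in place of 39 were 2-fold higher in trefoil-expressing cells, because 23 genes no longer entered. Among genes at 20 CPM or more in both kinds of cell, also chosen after seeing the data, 16 were higher and 19 in place of 55 lower, because 36 of the lower genes no longer entered.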
